A study of Mus musculus with 12 samples.

Results

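Distal chromosome 18, the part of mouse chromosome 18 that lies beyond 22 Mb in build mm8, was followed probe by probe through 12 liver tumors. Its members were all non-control array probes placed on chromosome 18 with a start above that position, and there were 971 of them among 42235 probes placed on the autosomes and chromosome X. They ran from 22058044 to 90727455, a span of 68.7 Mb, with a median spacing of 28.3 kb and a largest gap of 2.60 Mb between 27836259 and 30436080. A gene or transcript name was given for 820 members, which made 472 different names, and the other 151 members carried only a position. The members were chosen by the log2 ratios of the proximal gains in the tumors of hepatectomized mice, since the boundary was set beyond the ends of those gains, and the ratios on both sides of it are given only as a description. In PHx1M and PHx4M the last 5 probes below the boundary had mean log2 ratios of 0.32 and 0.33, and the first 5 members had -0.13 and -0.10. In the other tumors the 2 sides differed less, and in PHx2F, PHx3M and PHx6F the gain had already ended before the boundary, with -0.25, -0.19 and -0.18 over the last 5 probes below it.

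The study compared genomic aberrations of liver tumors that arose after partial hepatectomy (PHx), the surgical removal of most of the liver, with those of tumors that arose without surgery. All 12 mice were of the Mdr2-KO/FVB line, which carries a knockout allele of Abcb4, the gene of the canalicular phospholipid transporter Mdr2, on the FVB background, so controls carried the same deletion. The 6 post-PHx tumors (PHx1M, PHx2F, PHx3M, PHx4M, PHx5M and PHx6F, where M and F stand for male and female) came from mice that had lost 70% of the liver at 3 or 6 months and were examined at 9 months. The 6 spontaneous tumors came from untreated mice, males of 14 months (Spon1M and Spon2M) and females of 13 months (Spon3F, Spon4F, Spon5F and Spon6F). In each array comparative genomic hybridization the tumor DNA was labelled with the red dye and non-tumor liver DNA of the same mouse with the green dye, 1 array per tumor and without dye swap. Values below are log2 ratios of tumor over non-tumor liver, with the median of the autosomes of each array set to 0. Treatment and age differed together between the groups and cannot be told apart. Both sexes were in both groups, with 2 females and 4 males post-PHx and 4 females and 2 males with spontaneous tumors. The slide of each array is not in the labels and was read from the array barcodes. By these the groups shared only slide 2, which held PHx5M, PHx6F, Spon5F and Spon6F, while slide 1 held the other 4 post-PHx tumors and slide 3 the other 4 spontaneous tumors.

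A tumor that carries an extra copy of a chromosome segment gives a ratio above 0 over a run of neighbouring probes, and one that has lost a copy gives a ratio below 0. Non-tumor cells in the tumor sample and tumor cells without the change move both towards 0. Distal mouse chromosome 18 carries several genes known from human cancer, among them Apc, the scaffold of the complex that destroys beta-catenin, the TGF-beta signal transducers Smad2 and Smad4, and the netrin receptor gene Dcc.

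Between 935 and 970 members per array remained after outlier-flagged spots were dropped, and 868 were kept in every array. The robust SD between neighbouring members was 0.14 to 0.25 per array, no member was saturated, and 1 to 17 member spots per array were not well above background in at least 1 channel. Each tumor was measured once, so that there is no replicate error for a single tumor, and the groups of 6 tumors give the only spread between animals.

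The 4 arrays of slide 3 stood apart at single probes. A member was called single when its ratio lay more than 1 on the log2 scale from the median of its 10 nearest neighbours, and 33 members met this in at least 1 tumor. Spon1M had 8 such members, all low, Spon2M had 12, all high, and Spon3F had 25, all low, whereas the other 9 tumors had 0 to 3. Over all probes they made 1.03%, 1.23% and 3.53% of these 3 arrays and at most 0.260% of any other array. The 8 members of Spon1M were also single in both Spon2M and Spon3F, with the same direction in Spon3F and the opposite direction in Spon2M. Among all probes 365 were single in both Spon1M and Spon2M, and 364 of these went in opposite directions. At the 8 members the median signal, on the log2 scale with the autosomes of each channel at 0, was -0.91 in the tumor DNA of Spon1M, -1.61 in the non-tumor DNA of Spon2M and -2.20 in the tumor DNA of Spon3F. In Spon4F it was low in both the tumor DNA, with -1.18, and the non-tumor DNA, with -1.65, and the ratio hid this. In the other 8 arrays both channels lay between 0.42 and 0.88 there. The tumor and the non-tumor DNA of Spon1M, Spon2M and Spon3F thus differed at these probes although the labels assign them to 1 mouse each. The cause was not tested, and the comparisons between the groups are given with and without Spon1M, Spon2M and Spon3F.

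**Figure D1:**
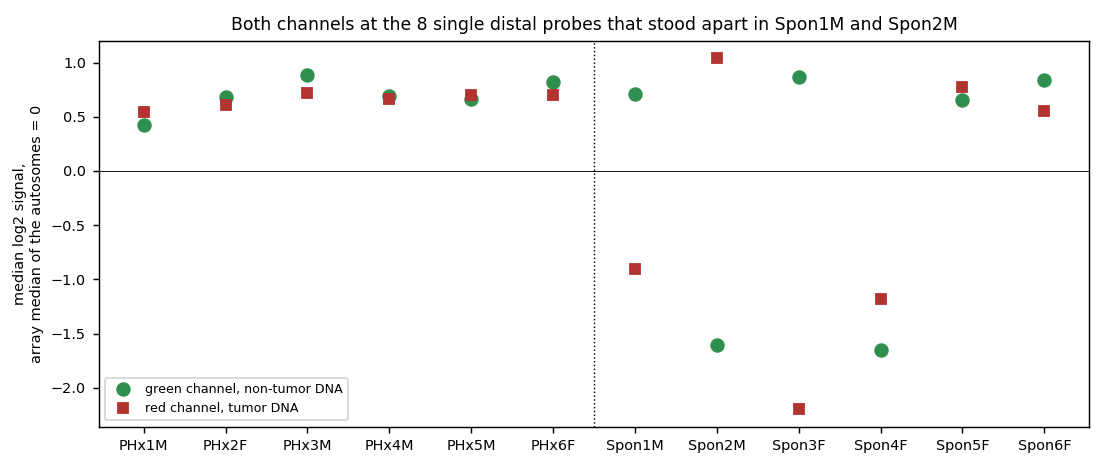
Median log2 signal of the tumor (red squares) and the non-tumor DNA (green circles) over the 8 single distal members shared by Spon1M and Spon2M, by tumor, with the autosomal median of each channel at 0. The tumor DNA of Spon1M and Spon3F, the non-tumor DNA of Spon2M and both DNAs of Spon4F lie between -0.91 and -2.20, and the channels of the other arrays lie between 0.42 and 0.88.

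The median over all members was below 0 in 5 of the 6 post-PHx tumors. PHx1M had a median of -0.04, PHx2F one of -0.03, PHx3M one of -0.13 and PHx4M one of -0.08, PHx5M had 0.11 and PHx6F had -0.14. The spontaneous tumors spread more widely, with 0.36 in Spon1M, 0.22 in Spon2M, -0.12 in Spon3F, 0.32 in Spon4F, -0.09 in Spon5F and -0.32 in Spon6F. As folds these medians ranged from 0.802 in Spon6F to 1.28 in Spon1M. Of the spontaneous tumors 3 lay above all post-PHx tumors and 1 below all of them, so the groups overlapped. The proximal part of the chromosome, up to 22 Mb, had medians of 0.42, 1.58, 0.75, 0.18, 0.14 and 0.90 in PHx1M to PHx6F. The distal median was lower than the proximal one in every post-PHx tumor, by 0.03 in PHx5M and by 1.61 in PHx2F at the extremes, a difference that the choice of the boundary had used. In the spontaneous tumors the distal part differed from the proximal part by -0.15 in Spon6F to 0.16 in Spon1M.

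Against the other 18 autosomes beyond the same position, distal chromosome 18 had the lowest median of the array in 4 post-PHx tumors (PHx1M, PHx3M, PHx4M and PHx6F) and in 2 spontaneous tumors (Spon3F and Spon6F). In PHx1M it was nearly tied with chromosome 3, with -0.042 beside -0.040. In PHx3M its median of -0.13 stood below the range of -0.05 to 0.09 of the other autosomes. In PHx6F the median of -0.14 stood below a range of -0.04 to 0.09, and in Spon6F the median of -0.32 below a range of -0.15 to 0.14. It was the highest of the 19 autosomes in PHx5M, where the others ranged from -0.22 to 0.05, and in Spon1M, where they ranged from -0.26 to 0.31. Averaged over the 6 post-PHx tumors it had the lowest mean of all 19 autosomes, -0.05, whereas its mean of 0.06 over the spontaneous tumors ranked 17th from the lowest. Over Spon4F, Spon5F and Spon6F alone its mean was -0.03 ± 0.32 (SD, n = 3), rank 7 from the lowest. The boundary was set beyond the proximal gains of chromosome 18 in the post-PHx tumors. The other autosomes were cut at the same position whatever their gains. The choice of members could thus favour a low rank of distal chromosome 18 in the post-PHx tumors. These ranks are descriptions of 12 arrays, and no test was made of them.

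**Figure D2:**
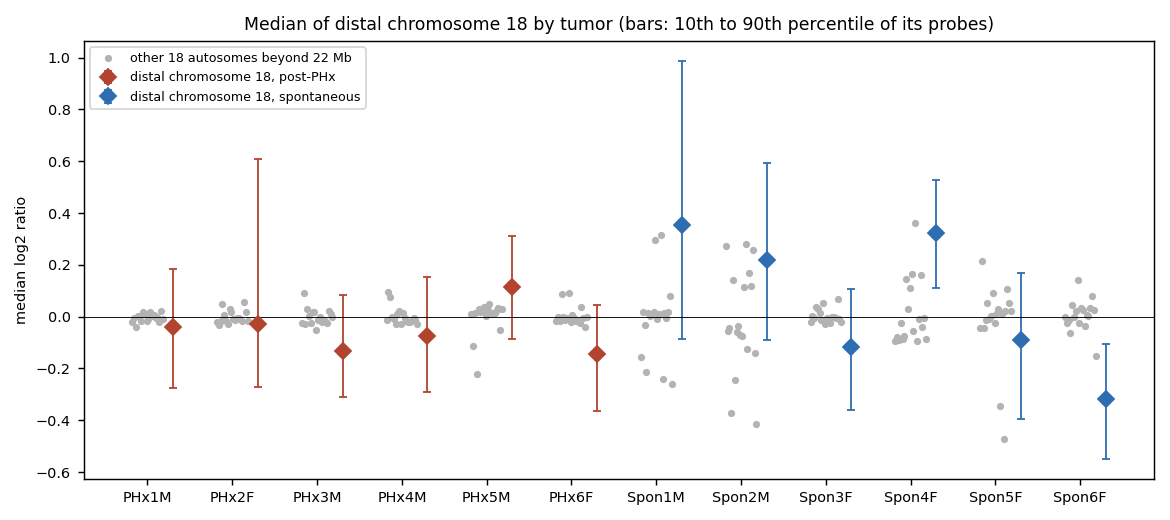
Median log2 ratio of distal chromosome 18 (diamonds, with bars from the 10th to the 90th percentile of its probes) and of each of the other 18 autosomes beyond 22 Mb (grey points) in the 12 tumors. The post-PHx medians lie between -0.14 and 0.11 and the spontaneous medians between -0.32 and 0.36.

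The mean of the tumor medians was -0.05 ± 0.09 (SD, n = 6) in the post-PHx group and 0.06 ± 0.27 (SD, n = 6) in the spontaneous group. The difference, post-PHx minus spontaneous, was -0.11 (two-sided exact permutation test, p = 0.361, smallest p that 6 against 6 allows 0.00216). In size it was smaller than the SD of 0.27 between the spontaneous tumors. On slide 2 alone the difference had the opposite sign, 0.19 (exact permutation p = 0.667), but 2 tumors per group cannot give a p under 0.05 in this test. Without Spon1M, Spon2M and Spon3F, the 3 arrays with many single probes, it was -0.02 (exact permutation p = 0.893).

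In bins of 1 Mb no stretch of distal chromosome 18 separated the groups. None of its 59 bins passed an adjusted p of 0.05 in limma, and 0 of 59 had an unadjusted p under 0.05, where 0% of all 2137 bins passed the adjusted and 5.62% the unadjusted threshold. The smallest adjusted p was 0.909. Of the 59 bins 49 were lower in the post-PHx tumors, with a median difference of -0.10, where the median over all bins was 0.01. This median depended on single tumors and was -0.04 with 36 bins lower without Spon4F, -0.05 with 45 lower without Spon1M, -0.06 with 41 lower without Spon2M, and -0.18 with 58 lower without Spon6F. The bins with the smallest p lay at 45 to 46 Mb, which holds only the transcripts AK033158 and AK039712, with a difference of -0.23 ± 0.14 (SE), at 42 to 43 Mb, which holds the leucyl-tRNA synthetase gene Lars, with -0.19 ± 0.12, and at 46 to 47 Mb, which holds the cysteine dioxygenase gene Cdo1, with -0.28 ± 0.18. The bins that were higher in the post-PHx tumors differed less, and those with the smallest p were 90 to 91 Mb, the end of the chromosome with Txndc10, with 0.06 ± 0.11, 89 to 90 Mb, with Rttn and Cd226, with 0.04 ± 0.13, and 36 to 37 Mb, with Hbegf and Cd14, with 0.05 ± 0.15. With slide as a block all 59 bins were higher in the post-PHx tumors, with a median difference of 0.19. Only slide 2 held both groups, so this fit compared the 2 post-PHx with the 2 spontaneous tumors of that slide. With sex as a term 13 of the 59 bins had an unadjusted p under 0.05, all lower in the post-PHx tumors, where 259 of all 2137 bins had one. None passed the adjusted threshold. Without Spon1M, Spon2M and Spon3F the median difference of the 59 bins was -0.03 and 37 were lower in the post-PHx tumors.

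Within single tumors, most of the chromosome lay at 1 level. The SD between the 1 Mb bin means of a tumor was 0.06 to 0.10 in 10 tumors, 0.26 in PHx2F and 0.37 in Spon1M. When each array was cut into pieces of different level, PHx6F, Spon4F, Spon5F and Spon6F had a single piece of at least 5 probes, and the pieces of the other flat tumors differed by at most 0.19, in PHx5M. PHx2F had 11 such pieces between -0.14 and 0.81, and Spon1M 26 between -0.05 and 1.1.

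**Figure D3:**
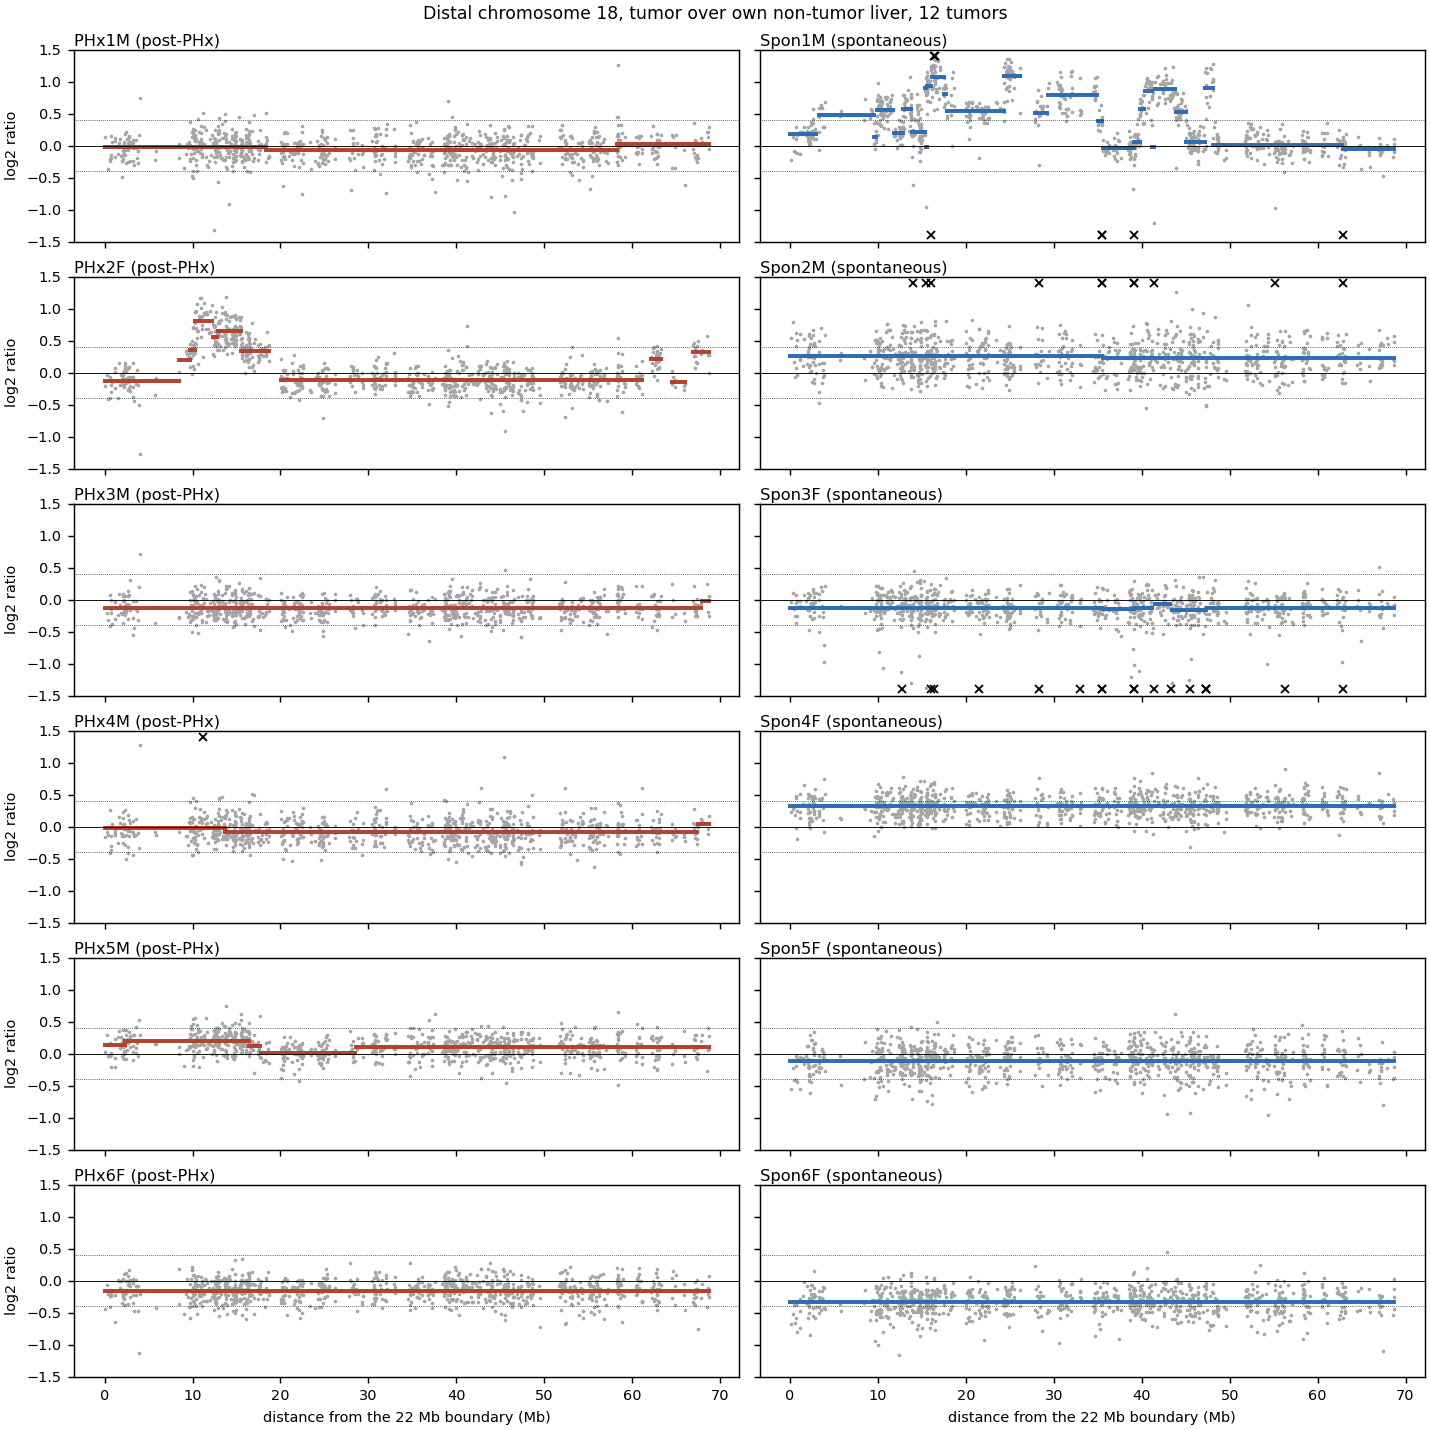
Log2 ratio of every member probe (grey points) against the distance from the 22 Mb boundary in Mb, with the levels of the pieces of at least 2 probes as thick lines, crosses near the edge for probes with ratios too large to draw, and dotted lines at 0.4 and -0.4. PHx2F rises over a block that begins about 10 Mb from the boundary, Spon1M changes level many times, and the other 10 tumors are nearly flat apart from single probes and short runs.

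Among the post-PHx tumors PHx2F had an amplified region of the members. A region was called amplified, or deleted, when a run of at least 2 probes reached an error-weighted score of 6 and a mean log2 ratio of at least 0.4, or at most -0.4. The region covered 149 probes from 32278353 to 37547498, 5.27 Mb, with a mean log2 ratio of 0.67 ± 0.21 (SD between probes), a 1.59-fold ratio. This took in 15.7% of the members measured in this tumor, where 2.21% of all its probes were in amplified regions. The region began within Proc, the gene of the anticoagulant protein C, and ended at Pcdhb11 in the protocadherin cluster. Its highest probe was in Dnajc18, a chaperone gene, with 1.19, although another probe of this gene, at 35809249, had 0.47. Its lowest probe was in Bin1, a gene of membrane curvature, with 0.14. The level was not even along the region. The first 37 probes, up to 34174265, had a mean of 0.81, the next 24 probes 0.56 and the 84 probes from 34844430 to 37462393 0.65.

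The gain of PHx2F had shoulders below the limit of 0.4. Before it, 6 probes from 30491074 to 31690595 had a mean of 0.20 and 23 probes from 31724440 to 32266302 a mean of 0.35. After it, 75 probes from 37564094 to 40653383 had a mean of 0.35. With a limit of 0.25 in place of 0.4 the amplified share of this tumor was 28.2% of the members. The 580 probes from 42061166 to 83126417 lay at -0.12. A pair of short stretches near the end of the chromosome were higher again, with 0.21 over 24 probes from 84146960 to 85216149 and 0.33 over 19 probes from 88953281 to 90674617, separated by 9 probes at -0.14.

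Spon1M was amplified over 9 regions of distal chromosome 18, which together held 480 probes, 49.7% of its members, where 7.27% of all its probes were in amplified regions. The regions added up to 34.0 Mb and had a mean of 0.73, while the members outside them had a mean of 0.04. The first began at 25274122 in Fhod3, a formin gene, and the last ended at 70109425 in Rab27b, a gene of vesicle transport. The region means ranged from 0.49, over 20 probes from 25274122 to 31514560, to 0.94, over 24 probes from 37537850 to 38063035. The longest region, from 38089529 at Fchsd1 to 56878193 at Lmnb1, measured 18.8 Mb, held 227 probes and had a mean of 0.78 ± 0.30 (SD between probes), a 1.71-fold ratio. Its highest probe was in the ubiquitin ligase gene Rnf14, with 1.46. The number of regions depended on single probes. The gaps at 37483516 to 37526860, 38080646 to 38085146 and 63159533 to 63391478 had 2 to 3 probes and each held a single member. Without the members that were single in any tumor the gains of Spon1M made 6 regions with 50.5% of the members, and with a score of 10 they made 4.

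The level of Spon1M changed in steps of different height. Inside the longest region 34 probes from 38089529 to 39498035 had a mean of 1.07, and 74 probes from 39807348 to 46325085 a mean of 0.54. They were followed by 35 probes from 46365432 to 48169919 with 1.1, a 2.14-fold ratio, which began at Pggt1b, the gene of a prenyltransferase subunit, and was the highest piece of at least 5 probes among the members of any tumor. The next pieces had 0.52 over 19 probes from 49836664 to 51257080 and 0.79 over 56 probes from 51387469 to 56878193. Beyond Lmnb1 the level dropped to 0.39 over 11 probes and then to -0.04 over 50 probes from 57601498 to 61068781. It was high again from 61828098 to 63154527, with a mean of 0.74 over 36 probes, and from 63535483 to 66984813, with 0.74 over 66 probes and an end at Mc4r, the melanocortin receptor gene. After 55 probes at 0.06, 17 probes from 69225524 to 70109425 had a mean of 0.90. The 167 probes from 70154248 to 84814913 lay at 0.01 and the last 38 at -0.05.

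Before the longest region the steps of Spon1M were smaller and alternated. The 51 probes from 31904773 to 33662509 had a mean of 0.56, the 30 probes from 33811984 to 34829416 had 0.20, the 33 probes from 34844430 to 35809304 had 0.58, and the 47 probes from 35865069 to 37301752 had 0.21. The step between 34829416 and 34844430, inside Gfra3, a receptor gene of the GDNF family, fell between the same neighbouring probes as a step of PHx2F. There the level went from 0.56 to 0.65, with SDs between probes of 0.17 and 0.18. The step between 39699169 and 39807348 where Spon1M went from 0.82 to 0.54, fell between the same neighbouring probes as a step of PHx5M, where the level went from 0.12 over 27 probes to 0.01 over 124 probes. A step between 37462393 and 37483516 was also shared with PHx2F, but in Spon1M it lay at the single probe of Pcdhb8. Spon1M was cut into 26 pieces of at least 5 probes, and whether shared steps exceeded chance was not tested.

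PHx2F and Spon1M both had 71 probes, with 44 gene or transcript names, in amplified regions, 47.7% of the amplified members of PHx2F and 14.8% of those of Spon1M. These lay between 32278353 and 37547498. Of all members 49.7% were amplified in Spon1M and 15.7% in PHx2F, so both shares of the overlap were near those of all members. The gains were carried by the tumor DNA. Over the amplified members of Spon1M the red signal, compared with the mean of the other 11 arrays, was higher by a median of 0.68 and the green signal by -0.06, and over its other members the values were 0.00 and -0.08. Over the amplified members of PHx2F the red signal differed by 0.60 and the green signal by -0.02, against -0.05 and 0.03 over its other members.

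**Figure D4:**
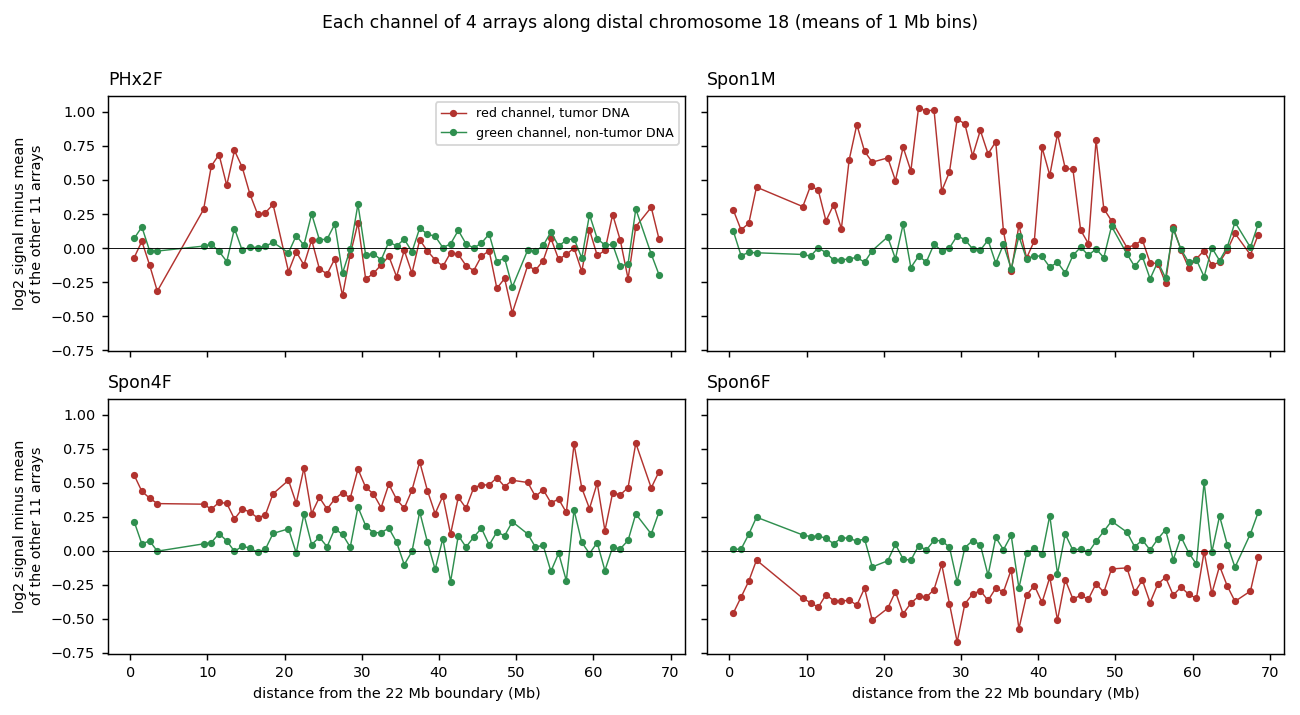
Log2 signal of the tumor (red) and the non-tumor (green) channel minus the mean of the same probes over the other 11 arrays, averaged in 1 Mb bins, against the distance from the 22 Mb boundary in Mb, in PHx2F, Spon1M, Spon4F and Spon6F. The red channel rises over the gains of PHx2F and Spon1M, lies above 0 along Spon4F and below 0 along Spon6F, and the green channel has bin medians between -0.05 and 0.06 in these 4 arrays, with single bins from -0.29 to 0.50.

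In the other post-PHx tumors no member was in an amplified region, although 1.14% of all probes of PHx1M, 6.39% of PHx3M, 4.38% of PHx4M, 0.00955% of PHx5M and 1.14% of PHx6F were. No member of Spon3F, Spon4F, Spon5F or Spon6F was in one either, where 0.0932%, 0%, 0% and 0.64% of all probes were. Deleted regions held 1.83% of all probes of Spon2M, 5.74% of Spon5F, 0.0143% of PHx5M and 0.00484% of PHx2F, none of them members. Amplified regions of the members were thus found in 1 of 6 post-PHx and 2 of 6 spontaneous tumors (two-sided Fisher's exact test, p = 1). Besides PHx2F and Spon1M this was Spon2M, with a pair of single probes only, and with regions of at least 5 probes the counts were 1 of 6 and 1 of 6. With equal weights for all probes, in place of the deposited errors, PHx4M also had an amplified and PHx2F a deleted region of 2 probes each, so that the counts were 2 of 6 and 2 of 6 for amplified regions and 1 of 6 and 2 of 6 for deleted ones. Deleted regions were found in 0 of 6 post-PHx and 2 of 6 spontaneous tumors, Spon1M and Spon3F (Fisher's exact test, p = 0.455). All of these deleted regions had 2 to 4 probes, and with at least 5 probes, or without the 33 single members, no tumor had one. With so few tumors that had a region, none of the Fisher's exact tests in this paragraph could reach a p under 0.05. Without Spon1M, Spon2M and Spon3F an amplified region was left in PHx2F alone, 1 of 6 against 0 of 3 (Fisher's exact test, p = 1), and no deleted region was left.

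Several tumors had a shift along the whole of distal chromosome 18 that stayed below the limit of 0.4. In Spon4F 97.6% of the members were above 0, and 1 piece from 3617558 to 90727455, nearly the whole chromosome, had a mean of 0.32. In Spon6F 3.01% of the members were above 0, and 1 piece of 1097 probes from 10848756 to 90668624 had a mean of -0.33. In Spon2M the level was 0.26 up to 57499948 and 0.24 beyond 57601498. In PHx5M the pieces of at least 5 probes lay between 0.01 and 0.20. Low levels along the members were found in PHx3M, with a piece of 973 probes from 20244826 at -0.12, and in PHx6F, with 1016 probes from 20104301 at -0.15. In Spon5F a piece of 1208 probes from 3254025 lay at -0.11 and took in the proximal part. All of these pieces began below the boundary, so their counts include probes that are not members. The shifts of Spon4F and Spon6F were in the tumor channel, with medians of 0.38 and -0.32 against the other 11 arrays, while the green channel differed by 0.06 and 0.05. In Spon2M the red channel differed by 0.20 and the green channel by -0.01, but in PHx5M the red channel differed by 0.01 and the green channel by -0.09. With a limit of 0.25, 100% of the members of Spon4F and 52.4% of those of Spon2M were called amplified, and 99.8% of those of Spon6F deleted.

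The short calls fell on the single probes described above. At 57514879 to 57514998 a pair of probes in Prrc1 was called deleted in Spon1M, with a mean of -1.52, amplified in Spon2M, with 2.23, and deleted in Spon3F, with -2.95. At the first of these probes the processed red and green signals were 556 and 1520 in Spon1M, 1662 and 423 in Spon2M, 185 and 1419 in Spon3F, and 495 and 335 in Spon4F. In the other 8 arrays both signals of this probe lay near each other, between 854 and 1416. Another Prrc1 probe, at 57499889, had ratios of 0.38, 0.19 and -0.13 in Spon1M, Spon2M and Spon3F and did not stand apart. In Spon3F 14 members, 1.45%, were in 5 deleted regions, where 3.16% of all its probes were. In Spon1M 4 members, 0.415%, were in 2 deleted regions, where 1.11% of all its probes were. In Spon2M the pair was 0.206% of the members, where 0.441% of all its probes were in amplified regions. The shares of the members were thus below those of all probes in these 3 arrays.

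Of 84 genes listed by function 81 had at least 1 member probe, 61 of them more than 1. A gene was counted as amplified when at least 1 of its probes lay in an amplified region, whatever its mean ratio. In PHx2F 15 of the 81, 18.5%, were in the amplified region and in Spon1M 38, 46.9%, near the 15.7% and 49.7% of all members, so the counts below describe where the listed genes lie and say nothing particular about them. Over the 81 genes the median log2 ratio was -0.03 in PHx2F and 0.29 in Spon1M, beside -0.03 and 0.36 over all members. In Spon4F the median of the listed genes was 0.34, in Spon2M 0.23 and in Spon6F -0.34, and it was between -0.15 and 0.13 in the other tumors.

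Of 5 tumor suppressor genes 1 was amplified in PHx2F and 1 in Spon1M. Apc (2 probes) had log2 ratios of -0.64, 0.75, -0.17, -0.04, 0.30 and -0.20 in order from PHx1M to PHx6F. In the spontaneous tumors it had 0.23, 0.38, -0.08, 0.28, 0.23 and -0.68 in order from Spon1M to Spon6F. It was thus inside the amplified region in PHx2F, while in Spon1M it lay in the stretch at 0.20 between regions. The low values of PHx1M and Spon6F came from its probe at 34388769, with -1.31 and -1.16, beside 0.03 and -0.19 at the probe at 34353150. Mcc (1 probe), a gene found mutated in colorectal cancer, was amplified only in Spon1M, with 0.43. Smad4 (2 probes) had values between -0.15 and 0.16 in the post-PHx tumors and 0.13, 0.37, 0.04, 0.30, -0.10 and -0.37 in Spon1M to Spon6F. Smad2 (2 probes) ranged from -0.69 in Spon5F to 0.57 in Spon2M, and Dcc (3 probes) from -0.52 in Spon6F to 0.09 in Spon4F. None of these 3 was in a called region in any tumor.

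Among growth factor genes, 7 of 8 listed genes were measured, and 2 were amplified in PHx2F and 3 in Spon1M. Gfra3 had 0.62 in PHx2F and 0.58 in Spon1M, where an amplified region began inside the gene. Hbegf, the gene of a ligand of the epidermal growth factor receptor, was amplified only in PHx2F, with 0.61, and had 0.48 in Spon1M, where the piece around it was below the limit. Fgf1, a fibroblast growth factor gene, and Spry4, an inhibitor of growth factor receptor signalling, were amplified only in Spon1M, with 0.98 and 0.82, and had 0.25 and 0.17 in PHx2F. The receptor genes Pdgfrb and Csf1r lay in the low stretch of Spon1M, each with 0.00. Smad7 (1 probe), an inhibitor of TGF-beta signalling, lay beyond the gains and had 0.29 in Spon1M.

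Of the genes listed under beta-catenin pathway and adhesion 2 of 6 were amplified in PHx2F and 4 in Spon1M. Ctnna1, the gene of alpha-catenin, which links cadherins to actin, had 0.80 in PHx2F and 0.64 in Spon1M, between -0.27 and 0.27 in the other post-PHx tumors and between -0.44 and 0.40 in the other spontaneous tumors. Wnt8a (1 probe), a Wnt ligand gene, had 0.64 in PHx2F, and its value of -1.12 in Spon3F was at a single probe. Csnk1g3, a casein kinase gene, and Apcdd1, a Wnt inhibitor, had 0.92 and 0.76 in Spon1M. Tcf4, with 0.87 there, encodes a basic helix-loop-helix factor and not the T-cell factor that binds beta-catenin, and without it the counts were 2 of 5 in PHx2F and 3 of 5 in Spon1M. Csnk1a1, the casein kinase that marks beta-catenin for destruction, had 0.08 there and was in no called region. The clustered protocadherins, adhesion genes with 25 probes and 21 names from 37285809 to 37881468, had a median of 0.86 in Spon1M, where 21 of their probes were amplified, and 0.39 in PHx2F, where 11 were. In the other tumors their median was between -0.33 in Spon6F and 0.31 in Spon4F.

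In cell division and DNA repair, 11 of 12 listed genes were measured, with 2 amplified in PHx2F and 5 in Spon1M. Ercc3, a helicase gene of nucleotide excision repair, had 0.97 in PHx2F and 0.68 in Spon1M, and Cdc25c (1 probe), a phosphatase that starts mitosis, 0.55 and 0.46. Cdc25c was highest in Spon4F, with 0.58 and without a called region, and lowest in Spon3F, with -0.14. The histone deacetylase gene Hdac3 had 1.21 in Spon1M, the highest value of the listed genes, and 0.30 in PHx2F. Lmnb1, which encodes lamin B1 of the nuclear envelope, and the centriole gene Cep120 had 0.94 and 0.78 in Spon1M, and -0.24 and -0.10 in PHx2F. Rttn (5 probes), near the end of the chromosome, had 0.25 in PHx2F and -0.10 in Spon1M. Among 11 transcription and chromatin genes 1 was amplified in PHx2F and 4 in Spon1M. Egr1 (1 probe), an early growth response factor, was amplified in both tumors, with 0.81 and 0.80. It also had 0.67 in Spon2M and 0.45 in PHx4M without a called region. The glucocorticoid receptor gene Nr3c1 had 0.78 in Spon1M and the liver transcription factor gene Onecut2 0.94. The other 7 genes of this list, all beyond the last region, included Mbd2 and Nfatc1 with 0.00 and 0.05 in Spon1M.

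Genes of liver metabolism and transport were all measured, and 2 of 16 were amplified in PHx2F and 8 in Spon1M. Stard4, which encodes a sterol carrier, had 1.01 in PHx2F, the highest of the listed genes there, and 0.61 in Spon1M. Proc had 0.54 and 0.55, and its 2 probes lay on either side of the start of the region in PHx2F, with 0.30 and 0.78. The mean of Proc was also 0.53 in Spon4F, without a called region, and -0.44 in Spon6F. Cdo1 had 1.15 in Spon1M, and Atp8b1, the gene of a canalicular lipid flippase in which defects cause cholestasis, had 1.0. Aldh7a1, an aldehyde dehydrogenase gene, and Fech (1 probe), the ferrochelatase gene, had 0.77 and 0.67 there. Hsd17b4, a gene of peroxisomal beta-oxidation, was among the 8 counted in Spon1M although its mean there was 0.08. It had 0.96 in Spon2M and -1.28 in Spon3F. Of its 2 probes 1 was single in Spon2M, with 1.66, and in Spon3F, with -2.51, and the same probe had -0.305 in Spon1M. The fatty acid genes Acaa2 and Lipg, further along, had 0.17 and -0.04 in Spon1M.

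In cell death and immunity 9 of 10 listed genes were measured, and 2 were amplified in PHx2F and 4 in Spon1M. Tslp (1 probe), a cytokine gene, had 0.87 in PHx2F and 0.73 in Spon1M, and Cd14 (1 probe), the co-receptor for bacterial lipopolysaccharide, 0.42 and -0.05. Malt1, a signalling protease of lymphocytes, and Pmaip1 (1 probe), the gene of the death protein Noxa, had 0.83 and 0.56 in Spon1M. Cd226 and Socs6 (1 probe) lay in the higher stretch at the end of PHx2F, with 0.38 and 0.27. Among matrix and cytoskeleton genes, 0 of 8 were amplified in PHx2F and 5 in Spon1M. The formin gene Diap1 had 1.08 there, Sema6a 1.01, Lox, the gene of the collagen cross-linking enzyme, 0.74, and Fbn2 -0.04. Lox also had 0.68 in Spon2M, without a called region, and -0.77 in Spon6F. Among genes of mitochondria and translation 3 of 8 were amplified in PHx2F and 4 in Spon1M. The release factor gene Etf1 had 0.67 and 0.63, the mitochondrial chaperone gene Hspa9 (1 probe) 0.42 and 0.69, and the tRNA synthetase gene Nars -0.26 and 0.83. Etf1 also had 0.61 in Spon2M, without a called region, and -0.27 in PHx6F. The ribosomal protein genes Rps14 and Rpl17, with 1 probe each, had 0.03 and 0.00 in Spon1M.

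**Figure D5:**
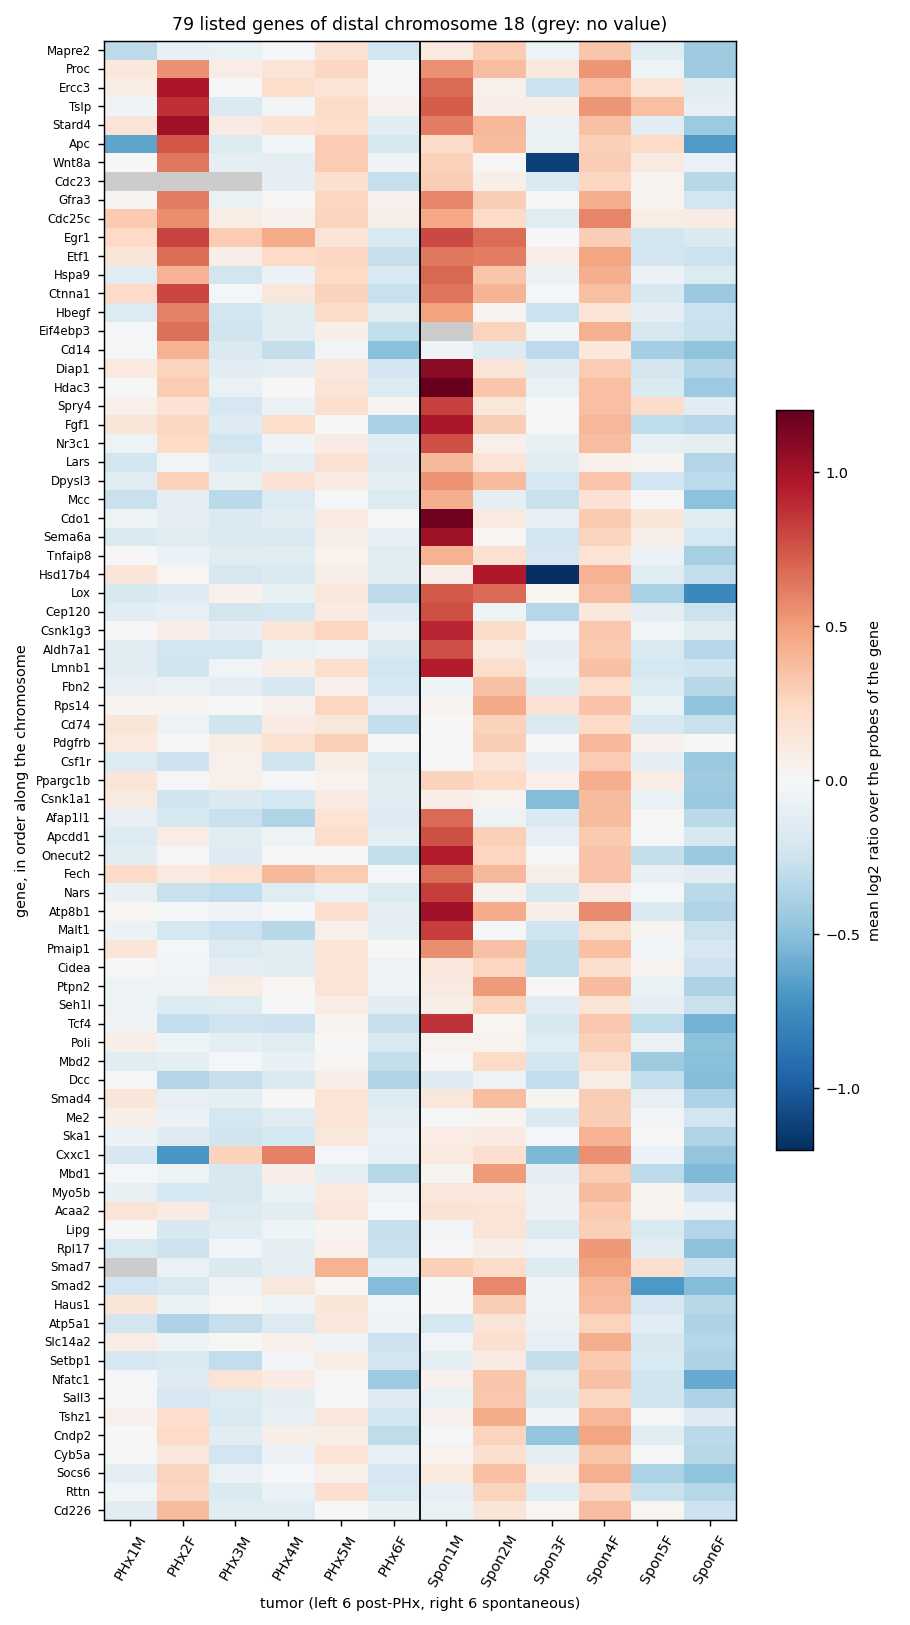
Mean log2 ratio over the probes of each of 79 of the 81 listed genes, in order along distal chromosome 18 from top to bottom, in the 12 tumors, on a colour scale from -1.2 to 1.2. PHx2F is high from Proc to Cd14, Spon1M is high in blocks down to Tcf4, and the columns of Spon2M and Spon4F are mostly above 0 and that of Spon6F mostly below 0.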

How the data were processed

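Genomic DNA of 12 tumors was hybridized to Agilent mouse CGH arrays (1 array of 43020 non-control spots per tumor) against non-tumor liver DNA of the same mouse. The authors extracted spots with Agilent Feature Extraction (version 10.5.1.1, per the file headers), which subtracted background, normalized the dyes and wrote the deposited log10 ratio with its error and the processed intensity of each channel. The deposited log10 ratio equalled that of the deposited red over green intensities within 0.001 in at least 99.7% of spots. Here the ratio was converted to log2, without outlier spots, with the mean taken over spots of 1 probe, and the autosomal median of every array was subtracted.

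Calls came from an interval score weighted by the deposited errors and written after ADM-2, the method that the study names (score 6, at least 2 probes, absolute mean log2 ratio at least 0.4). The interval search took at least 2 probes, a choice made after a first run. Group tests were the exact permutation test, Fisher's exact test, and limma 3.58.1 in R 4.3.3 on 1 Mb bins with at least 3 probes, with Benjamini-Hochberg adjustment over 2137 bins. The caller and limma were also run on simulated data, and the share recovered there is not given here. Gene symbols are those of the array, and RefSeq (GRCm38.p6) was used only to match newer names, which linked 4 listed genes. The text names listed genes, genes at the ends of called regions with their highest and lowest probes, and those of the bins with the smallest p. The members, the gene lists and the tests were chosen with earlier results of these data known.

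Alternatives were another background correction, other centrings, dim-spot, score, size and ratio limits, equal probe weights, other boundaries and bins, slide, sex and number as blocks, and each tumor left out. The number of arrays and the spread between probes limit the precision. No sequence is printed, and the values of a few listed genes are not reported here.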

Additional observations from a re-analysis of the deposited data

Results flagged for a closer look

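Values were marked when the highest or lowest of 6 tumors lay apart from the other 5 by more than the critical value of Dixon's test, which chance gives in about 1 of 20 groups. Without Spon1M, Spon2M and Spon3F the spontaneous group has too few tumors for this rule. The SD of the 1 Mb bin means was so marked for PHx2F, with 0.26, and for Spon1M, with 0.37. The share of members in amplified regions was marked for PHx2F, with 15.7%, and for Spon1M, with 49.7%. The other 5 post-PHx shares were 0, so any share above 0 would have been marked. Among the other spontaneous tumors only Spon2M was above 0, with 0.206%. The share in deleted regions was marked for Spon3F, with 1.45%, which came from short runs around single probes, and only Spon1M was also above 0, with 0.415%. The rate of 1 of 20 does not hold for such shares. Among the listed genes 9 of 159 gene and group combinations were marked, 5.66%. In PHx2F these were Ercc3 with 0.97, Stard4 with 1.01, Tslp with 0.87 and Cd226 with 0.38. In Spon1M they were Cdo1 with 1.15 and Nars with 0.83. In PHx5M they were Cep120 with 0.10 and Sema6a with 0.069, both the only positive values of their group, and in Spon3F Wnt8a with -1.12.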

How the results depend on the processing

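The difference of the medians kept its sign and stayed above an exact permutation p of 0.05 in 22 of 23 alternatives, and only within slide 2 was it reversed, to 0.19. Leaving out each tumor in turn gave -0.19 to -0.06 (exact permutation p = 0.0974 to 0.632), and the replicate block, tumors of the same number set against each other, gave -0.11 (exact permutation p = 0.281). The numbers pair nothing here, since same-numbered tumors came from different mice, their deviations correlated between -0.13 and 0.39, and 1 of 6 post-PHx tumors correlated best with its own number. The count of bins stayed at 0 in all 21 alternatives, the replicate block included, with smallest adjusted p values of 0.290 to 0.999. Unadjusted p under 0.05 numbered 9 of 59 bins without Spon6F, where 141 of all 2137 bins had one. They numbered 13 with sex as a term, where 259 of all 2137 bins had one, and 0 otherwise. Tumors with an amplified region numbered 3, and 2 to 3 with a tumor left out, 2 to 4 in the other alternatives (4 with equal probe weights, which added PHx4M, and with a limit of 0.25, which added Spon4F), except 1 without Spon1M, Spon2M and Spon3F, chosen after seeing the data. Tumors with a deleted region numbered 2, and 1 to 2 with a tumor left out (1 without Spon1M or without Spon3F), 3 with equal probe weights, which added PHx2F, and with a limit of 0.25, which added Spon6F, and 0 with at least 5 probes and, chosen after seeing the data, without the single members and without Spon1M, Spon2M and Spon3F. The amplified share of Spon1M was 24.97% with a limit of 0.6, and that of PHx2F 28.2% with 0.25 and 12.8% with 0.6, and in the other alternatives these shares were 47.8% to 51.1% and 15.5% to 15.9%. Spon1M had 9 amplified regions, and 11 with single probes allowed in the search or with a score of 5. It had 6 without the single members or with a score of 8, and 4 with a score of 10.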
